A study of Mus musculus with 2 samples.

Results

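The lymphotoxin and TNF superfamily ligand genes examined here were Lta, Ltb, Tnf, Tnfsf11, Tnfsf4, Tnfsf14, Tnfsf8, Tnfsf10, Tnfsf13b and Tnfsf15. Their chromatin was read from ChIC-seq islands, which are stretches of clustered reads released by micrococcal nuclease that an antibody had brought to TCF-1, the HMG-box factor encoded by Tcf7. An island was assigned to a ligand gene when it overlapped the RefSeq gene body or the 50 kb on either side of it by at least 1 bp, and an island in several windows was counted a single time. By this rule the 10 genes held 31 of the 19531 islands of the deposited table, 18 of them around Lta, Ltb and Tnf.

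The data came from C57BL/6 mice, from 500 sorted lymphoid tissue inducer (LTi) cells per library, gated as Lin- CD127+ CCR6+ cells lacking KLRG1, NK1.1 and NKp46. The first group was Tcf7+/+ and taken from Peyer's patches, and the second was Tcf7fl/fl-VavCre and taken from small intestine lamina propria, with 1 library each. Vav-driven Cre acts across blood cell lineages and not in LTi cells alone. The sources used here do not give age or the number of animals. Genotype and tissue changed together and cannot be told apart, and the difference between groups has no replicate check.

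The table has 2 read columns, called peak and control, and its header ties neither to a genotype, so every value below is peak library against control library and carries no direction between Tcf7+/+ and Tcf7fl/fl-VavCre cells. Within all islands the libraries held 483771 and 189291 reads, and their full depth is unknown. A fold is peak-library reads divided by control-library reads times 1.997, the scaling the caller used. Intervals are exact conditional binomial (Clopper-Pearson) 95% intervals and hold for counting error alone. Whether PCR copies of a molecule were removed before counting is not given in the sources used here. The FDR of an island is the authors' own value and treats the control count as free of error. How many of the sorted cells were cut and how strongly each was cut cannot be told apart. As a check of the cell label, the 5 LTi marker genes reported (Il7r, Kit, Ccr6, Id2 and Cxcr5) each had an island in windows of the same kind, where 68.3% of protein-coding genes had one. So did all 4 epithelial and all 4 B cell markers and 3 of 4 genes in each of the T cell and myeloid lists, with Bcl11b and Lyz2 lacking one. The T cell genes with an island, Cd3e, Cd3d and Cd3g, share islands and do not count as 3 independent genes. Islands that met an FDR of 0.05 lay in the windows of all 5 of these LTi markers, 2 of 4 epithelial markers and 3 of 4 genes in each of the B cell, T cell and myeloid lists, beside 59.0% of protein-coding genes. The pooled fold was 1.76 (1.54 to 2.02) for these LTi markers and ran from 1.27 (1.05 to 1.55) for the B cell list to 2.59 (1.93 to 3.52) for the myeloid list. By pooled fold the LTi markers lay inside the range of the other lists, and no list was tested against another. Taken singly, Kit stood at 9.23 (4.35 to 23.4), and the other LTi markers reported ran from 1.443 (Cxcr5) to 1.825 (Id2).

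TNF superfamily ligands are mostly membrane-anchored trimers that signal to neighbouring cells through matching receptors, many of which act through NF-kB. LTi cells are known for lymphotoxin alpha-beta heterotrimers, made of the Lta and Ltb products, which engage the lymphotoxin beta receptor on stromal cells and are needed to build lymph nodes and Peyer's patches. RANKL, the product of Tnfsf11, is also needed for lymph nodes, and in the gut it drives the formation of M cells over lymphoid follicles. The other members act chiefly on lymphocytes and dying cells: OX40 ligand (Tnfsf4), CD30 ligand (Tnfsf8), LIGHT (Tnfsf14), TL1A (Tnfsf15), TRAIL (Tnfsf10) and the B cell survival factor BAFF (Tnfsf13b).

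Of the 10 genes, 9 had an island in their window, where 68.3% of 21887 protein-coding genes did. An island that met an FDR of 0.05 was present for 8 of the 10, against 59.0% of all protein-coding genes. The genes lacking one were Tnfsf13b and Tnfsf15. Lta, Ltb and Tnf share their islands, so they do not count as 3 independent genes in these numbers. Of the 31 islands, 20 were at an FDR of 0.05 or less, a share of 64.5% that lay near the 62.5% of the whole table. Over the 13 islands that touched a ligand gene body, 11 were at this FDR, where 60.8% of islands over any protein-coding gene body were. Over the 18 islands that touched no ligand gene body, 9 were.

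Islands lay over the promoters of most members. RefSeq promoter windows, which reach from 250 bases before a gene's start to 50 bases after it, were matched for 9 of the 10 genes, and Tnfsf4 was not matched. An island overlapped this window at 7 of the 9 genes (Lta, Ltb, Tnf, Tnfsf11, Tnfsf14, Tnfsf8 and Tnfsf10), where 39.7% of 17492 genes had one. Those 7 promoters were covered by 6 islands, because 1 island reached over the starts of both Tnf and Lta. Of the 6 islands, 5 were at an FDR of 0.05 or less, against 52.4% of all islands over a promoter window. Together they held 245 peak-library and 77 control-library reads, a pooled fold of 1.59 (1.23 to 2.09), beside 1.42 (1.40 to 1.43) for all promoter islands with fewer than 200 peak-library reads. The promoters of Tnfsf15 and Tnfsf13b had no island over them or within 1 kb, and 42.0% of all genes had one within that distance.

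The 250 bases before the start are shown for 5 of these promoters, chosen because each lies under or partly under an island described below. They were taken from the RefSeq promoter table of build GRCm38.p6 (mm10) and run 5′ to 3′ on the gene's strand. Capitals mark CTTTG on either strand (CAAAG when read on the other), the core shared by the TCF motifs that were searched. The windows are Ltb at chr17:35194257-35194506, plus strand; Tnf at chr17:35202008-35202257, minus strand; Tnfsf11 at chr14:78308044-78308293, minus strand; Tnfsf14 at chr17:57194182-57194431, minus strand; and Tnfsf10 at chr3:27316827-27317076, plus strand.
Ltb: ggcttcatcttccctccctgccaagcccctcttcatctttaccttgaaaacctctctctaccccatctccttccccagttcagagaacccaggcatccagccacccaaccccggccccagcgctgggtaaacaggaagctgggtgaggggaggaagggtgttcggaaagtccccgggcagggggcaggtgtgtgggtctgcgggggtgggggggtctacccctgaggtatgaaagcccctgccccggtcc
Tnf: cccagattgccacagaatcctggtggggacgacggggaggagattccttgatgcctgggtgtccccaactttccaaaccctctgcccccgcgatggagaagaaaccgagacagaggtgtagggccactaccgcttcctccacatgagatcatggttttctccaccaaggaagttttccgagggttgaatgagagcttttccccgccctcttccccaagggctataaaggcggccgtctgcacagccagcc
Tnfsf11: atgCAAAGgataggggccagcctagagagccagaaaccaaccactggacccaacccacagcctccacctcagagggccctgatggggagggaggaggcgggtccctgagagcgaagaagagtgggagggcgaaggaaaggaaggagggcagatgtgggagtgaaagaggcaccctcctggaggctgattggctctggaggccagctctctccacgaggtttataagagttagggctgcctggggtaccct
Tnfsf14: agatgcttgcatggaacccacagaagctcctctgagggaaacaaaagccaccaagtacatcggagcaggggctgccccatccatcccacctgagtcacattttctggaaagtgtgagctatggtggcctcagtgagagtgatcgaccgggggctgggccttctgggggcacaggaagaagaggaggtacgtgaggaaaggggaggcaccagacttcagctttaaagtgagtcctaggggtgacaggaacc
Tnfsf10: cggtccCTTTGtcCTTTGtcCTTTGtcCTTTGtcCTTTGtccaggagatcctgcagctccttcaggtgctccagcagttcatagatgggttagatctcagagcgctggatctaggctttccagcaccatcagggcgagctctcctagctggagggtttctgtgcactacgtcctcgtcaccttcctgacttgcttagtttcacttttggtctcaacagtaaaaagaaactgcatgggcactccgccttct

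The TCF motif, searched as CTTTGAA and CTTTGAT on both strands, was in none of the promoter windows of the 9 matched members, and 7.57% of 21263 promoter windows of protein-coding genes held it. The shorter core CTTTG, added after the sequences had been seen and contained in both motifs, was in 3 of the 10 windows of these genes (Tnfsf13b has 2 windows) and in 51.2% of all. Tnfsf10 stood out by eye in its sequence, where the core recurs 5 times in a row of CTTTGTC repeats. As many as 5 cores were found in 0.207% of all promoter windows. Tnfsf8 had 2 cores and Tnfsf11 had 1. These are matches of letters and do not show where TCF-1 sat within an island. The islands are wider than the windows searched, and the sequence of the remaining island was not used here.

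Lta, Ltb and Tnf, the genes of the lymphotoxin chains and of TNF, lie in the major histocompatibility complex at chr17:35203165-35205578 (Lta), chr17:35194507-35196305 (Ltb) and chr17:35199367-35202007 (Tnf). Their windows merge into 111.1 kb with 18 islands, which covered 42.0% of it, and 17 of the 18 belonged to all 3 genes. The 18 islands held 654 peak-library and 233 control-library reads, a pooled fold of 1.41 (1.21 to 1.64), which became 1.10 (0.944 to 1.28) with equal library totals over the table. Among all protein-coding genes the median window held 2 islands, and 44 genes held at least 17. The merged window also contained 7 other protein-coding genes. Windows with at least 9 protein-coding genes held a median of 6 islands, and 1.27% of these 1335 windows held at least 17. Neighbouring genes share islands in that background too, and the part of gene density in the island count was not tested beyond these values.

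Ltb, which encodes the chain that anchors lymphotoxin in the membrane, had the lowest FDR of the block. Its island, at chr17:35192401-35198800, was 6400 bp wide and reached from 2.11 kb before the Ltb start to 4.29 kb after it, past the end of the gene. It held 87 peak-library and 23 control-library reads, the latter 45.9 when scaled. The fold was 1.89 (1.19 to 3.14) with an FDR of 1.85e-07. This was the island with the lowest exact binomial p among the 31 (adjusted p = 0.156 over all islands, Benjamini-Hochberg), which did not pass 0.05.

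Lta, which encodes the lymphotoxin chain common to the secreted homotrimer and the membrane heterotrimer, shared its promoter island with Tnf. That island, at chr17:35201601-35208400, was 6800 bp wide and covered the whole Lta body and the start of Tnf. It held 84 against 31 reads, a fold of 1.36 (0.889 to 2.12) and an FDR of 0.00660. A second island lay inside Tnf at chr17:35200601-35201000, was 400 bp wide and held 8 against 2 reads, a fold of 2.00 (0.400 to 19.4). Both intervals include 1, so neither island differed between the libraries beyond counting error. Between Lta and the next gene, the island at chr17:35209601-35211200 held 37 against 16 reads, a fold of 1.16 (0.629 to 2.23). The nearest ligand gene to it was Lta, at a distance of 4.02 kb.

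Most of the block's islands lay nearer to neighbouring genes than to the ligand genes. For 14 of the 18 islands another protein-coding gene was nearer than any of the 3 ligand genes. The island with the most peak-library reads, at chr17:35231001-35237600, overlapped Nfkbil1 and Atp6v1g2 and held 91 against 37 reads, a fold of 1.23 (0.832 to 1.86). Next in reads outside the ligand genes was an island over Prrc2a at chr17:35164801-35167600, which held 80 against 23 reads, a fold of 1.74 (1.08 to 2.90). Over Lst1, a leukocyte-expressed gene next to Ltb, the island at chr17:35185401-35187200 held 29 against 6 reads and a fold of 2.42 (0.988 to 7.13). In 2 islands the scaled control library was higher. They held 23 against 17 reads at chr17:35178401-35179200, between Aif1 and Lst1, and 25 against 14 reads at chr17:35217401-35220200 over Nfkbil1, with folds of 0.678 (0.346 to 1.35) and 0.894 (0.447 to 1.86). The islands over Prrc2a and Lst1, these 2 and the one beyond Lta were picked for this description after their values were seen.

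**Figure D1:**
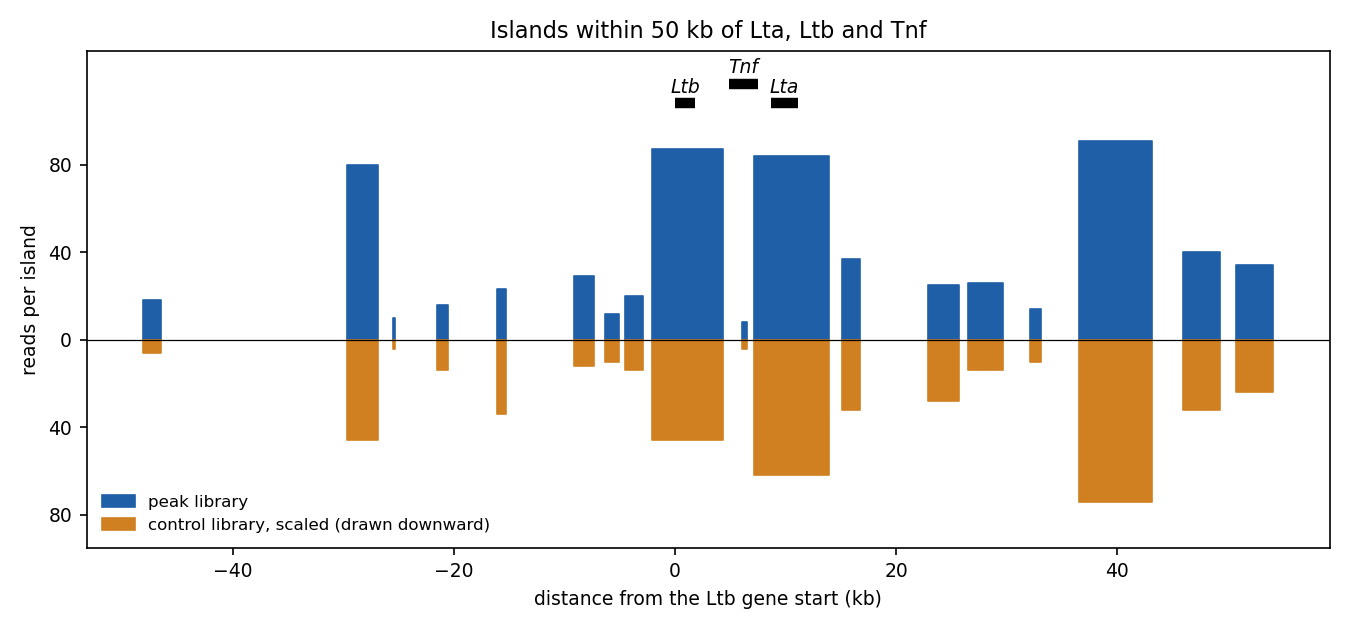
Reads per island (vertical axis) against distance from the Ltb gene start in kb (horizontal axis) for the 18 islands within 50 kb of Lta, Ltb and Tnf. Blue bars going up are peak-library reads, orange bars going down are control-library reads times 1.997, bar width is island width, and black bars mark the 3 genes. The 4 tallest blue bars, at 80 to 91 reads, include the islands over Ltb and over Tnf and Lta, and 16 of the 18 islands have more peak-library than scaled control-library reads. Of all islands in the table, 89.8% do.

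Tnfsf11, which encodes RANKL, had 5 islands in a window that contained no other protein-coding gene, and all 5 were at an FDR of 0.05 or less. Of all islands in the table, 62.5% were. The gene lies at chr14:78277446-78308043. Its islands held 74 against 13 reads, a pooled fold of 2.85 (1.57 to 5.60). Of all protein-coding genes, 21.0% had 5 or more islands in their window. Of 2484 genes that stand alone in their window the median had 0 islands, and 5.64% had 5 or more.

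Along Tnfsf11 the islands were spread from before the start to beyond the end. The island over the promoter, at chr14:78308001-78308600, held 9 peak-library reads and 0 control-library reads. With its control reads set at a floor of 3 the fold was 1.50, a value that depends on that setting. The exact 95% lower bound, which also takes in the error of the 9 reads, was 0.989. This island was the only 1 of the 31 that had no control read, where 5.69% of all islands had none. A second island 0.843 kb inside the gene, at chr14:78307001-78307200, held 8 against 1 reads, a fold of 4.01 (0.537 to 178). The island deeper in the gene at chr14:78288001-78291600 held 20 against 5 reads, a fold of 2.00 (0.730 to 6.83). Before the gene, 12.4 kb from its start, the island at chr14:78320401-78322200 held 24 against 4 reads, the most of the window, with a fold of 3.00 (1.03 to 11.9). Beyond the end, 21.6 kb away, the island at chr14:78254401-78255800 held 13 against 3 reads and 2.17 (0.596 to 11.9). All 5 folds lay above 1, where 89.8% of all islands had such a fold. Of the 5 intervals 1, that of the island before the gene, excluded 1.

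Tnfsf14, which encodes LIGHT, a ligand of the lymphotoxin beta receptor and of HVEM, had both of its islands over the gene body. The gene lies at chr17:57189474-57194181, apart from the lymphotoxin genes on the same chromosome. The island over its far end, at chr17:57188001-57190600, held 25 against 4 reads, a fold of 3.13 (1.08 to 12.4) with an FDR of 2.05e-06. The island over its start, at chr17:57192601-57194400, held 17 against 4 reads, a fold of 2.13 (0.694 to 8.69). Pooled, the 42 against 8 reads gave 2.63 (1.22 to 6.48). With the table's totals set equal the interval became 0.953 to 5.07, which includes 1. With 100 kb on either side the pooled fold was 1.28 (1.02 to 1.60).

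Tnfsf4, which encodes OX40 ligand, a costimulator of T cells, had 1 island. The gene lies at chr1:161395438-161418206, and the island, at chr1:161395201-161397000, overlapped its lower-coordinate end. It held 15 against 1 reads, the highest pooled fold of the 9 members with an island, 7.51 (1.16 to 316), with an FDR of 5.15e-09. With 1 control read the size of this fold is poorly determined, and with equal totals its interval ran from 0.903 to 247. With 100 kb on either side, which adds further islands, the pooled fold was 3.00 (1.25 to 8.72).

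Tnfsf8, which encodes CD30 ligand, had 3 islands over the gene's first part and reads in both libraries. The gene lies at chr4:63831202-63861508. The island over its start, at chr4:63859401-63862600, held 25 against 12 reads, a fold of 1.04 (0.505 to 2.28). The middle island at chr4:63855201-63858000 held 22 against 10 reads and 1.10 (0.501 to 2.61), and the innermost at chr4:63852401-63854200 held 20 against 5 reads and 2.00 (0.730 to 6.83). Of the 3, the innermost was at an FDR of 0.05 or less (0.00362). Pooled, 67 against 27 reads gave 1.24 (0.784 to 2.02), which became 0.971 with equal totals, so no difference between the libraries was detectable here at this depth.

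Tnfsf10, which encodes the death receptor ligand TRAIL, had 1 island, which lay over the start and the repeat shown above. The gene lies at chr3:27317077-27339665 and the island at chr3:27315801-27317800. It held 23 against 7 reads, a fold of 1.65 (0.684 to 4.54) with an FDR of 0.0167.

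Tnfsf13b, which encodes BAFF, had a single island 29.2 kb before the gene, and it overlapped the DNA ligase gene Lig4. The gene lies at chr8:10006229-10036000 and the island at chr8:9976001-9977000. It held 11 against 7 reads, a fold of 0.787 (0.279 to 2.39) and an FDR of 1. Tnfsf15, which encodes TL1A and lies at chr4:63724600-63745059 near Tnfsf8, had no island in its window. Islands were listed by the caller, so reads below its limits at these genes were not seen.

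**Figure D2:**
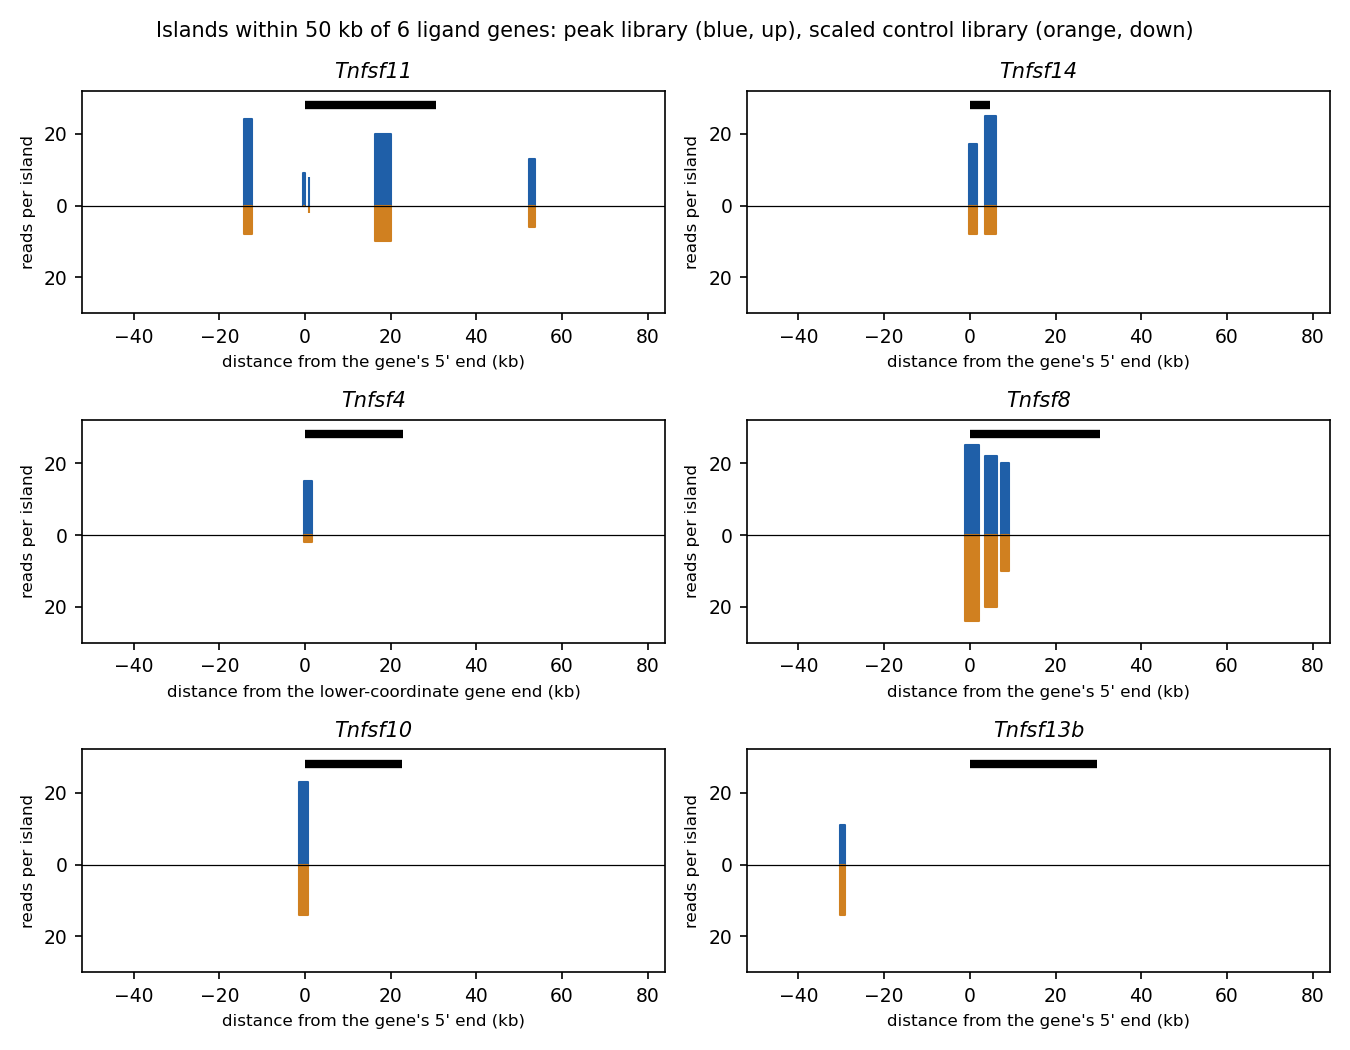
Reads per island (vertical axis) against distance in kb from the 5′ end of the gene, or for Tnfsf4 from its lower-coordinate end, for 6 ligand genes outside the lymphotoxin block. Blue bars going up are peak-library reads, orange bars going down are control-library reads times 1.997, and black bars are gene bodies. Tnfsf11 has 5 islands spread over and around the gene, those of Tnfsf14, Tnfsf4, Tnfsf8 and Tnfsf10 lie on the gene or its end, and the single island of Tnfsf13b lies outside.

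The distance of 50 kb decided a few islands. Just inside it for Ltb were an island over Ddx39b, 48.9 kb away with 34 against 12 reads, and the island over Bag6 at chr17:35146401-35148000, with 18 against 3 reads, which is 46.5 kb from Ltb and 51.4 kb from Tnf. Just outside were islands 51.6 kb from Lta (49 against 24 reads), 52.8 kb from Tnfsf14 (59 against 31 reads), 55.8 kb from Tnfsf15 (16 against 3 reads) and 66.3 kb from Tnfsf8 (14 against 0 reads). Tnfsf10 and Tnfsf11 had no further island within 100 kb of the gene. The next island was 133.3 kb from Tnfsf10 and 127.0 kb from Tnfsf11.

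By pooled fold the windows ranked from Tnfsf4 at 7.51 through Tnfsf11 at 2.85, Tnfsf14 at 2.63, Tnfsf10 at 1.65, the Lta, Ltb and Tnf block at 1.41 and Tnfsf8 at 1.24 to Tnfsf13b at 0.787. Neighbours in this order did not differ beyond counting error. Each pair of the 7 windows was compared by Fisher's exact test, two-sided, on the reads of these 2 libraries, a comparison added after the data were seen. None of the 21 pairs passed after Benjamini-Hochberg adjustment, and 4 had an unadjusted p under 0.05. The smallest p belonged to Tnfsf11 against the block, whose pooled fold was 2.03 times that of the block (95% interval 1.09 to 4.06, exact p = 0.0198, adjusted p = 0.223). The intervals of the ratios are wide, and Tnfsf14 against the block ran from 0.851 to 4.68 times.

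**Figure D3:**
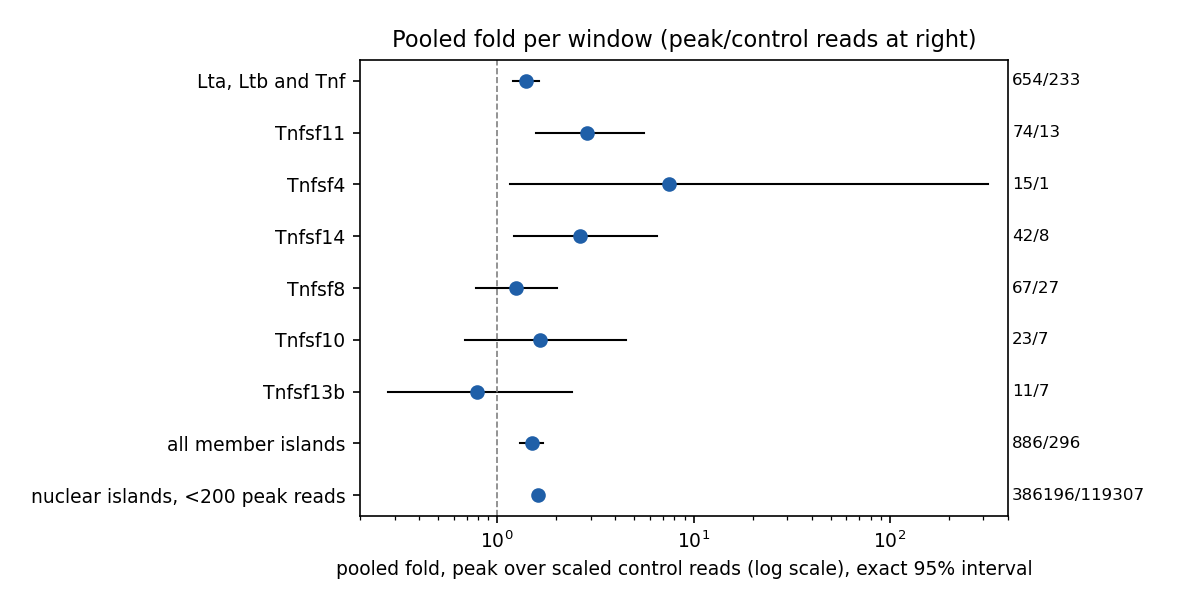
Pooled fold of peak-library over scaled control-library reads (log axis) for each window with an island, for all 31 member islands and for the 19513 nuclear islands under 200 peak-library reads. Points are pooled folds, lines are exact 95% intervals, the dashed line marks 1, and unscaled peak and control reads stand at the right. The intervals of the Lta, Ltb and Tnf block, Tnfsf11, Tnfsf4 and Tnfsf14 lie above 1, and those of Tnfsf8, Tnfsf10 and Tnfsf13b include 1. The interval of every window also includes 1.62, the pooled fold of the nuclear islands. All islands were called for peak-library reads.

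Set beside nuclear islands under 200 peak-library reads, the 31 islands showed a similar excess of peak-library reads. They held 886 against 296 reads, a pooled fold of 1.50 (1.31 to 1.72), where those nuclear islands stood at 1.62 (1.61 to 1.63). The whole table also takes in mitochondrial islands and islands with 200 or more peak-library reads. It stood at 1.28 (1.27 to 1.29), below the interval of the 31 islands. Without the block the other 13 islands stood at 1.84 (1.39 to 2.48), from 232 against 63 reads. The median fold was 1.65 for the 31 islands and 1.79 for all islands, with islands lacking control reads set at the floor of 3. A fold above 1 was found for 28 of the 31, where 89.8% of all islands had one. The islands were called for peak-library reads, and the part of that selection in the excess was not tested.

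The median member island held 22 peak-library and 7 control-library reads, against 16 and 4 in all islands, and its median width was 1800 bp against 1400 bp. The 18 islands of the Lta, Ltb and Tnf block had medians of 25.5 and 9.5 reads. The other 13 had 20 and 4, so in the control library their median was that of all islands. The exact conditional binomial test, two-sided, which takes the error of both counts, passed 0 of the 31 islands after Benjamini-Hochberg adjustment over all 19531, and 0.302% of all islands passed it on the side of the peak library. At an unadjusted p under 0.05, 7 of the 31 were higher in the peak library, where 18.3% of all islands were. Those 7 lay at Tnfsf4, over the Tnfsf11 start, before Tnfsf11, over the far end of Tnfsf14, over Ltb, over Lst1 and over Prrc2a. For those over the Tnfsf11 start and over Lst1 the interval of the fold, which is built from equal tails, still reached just below 1.

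**Figure D4:**
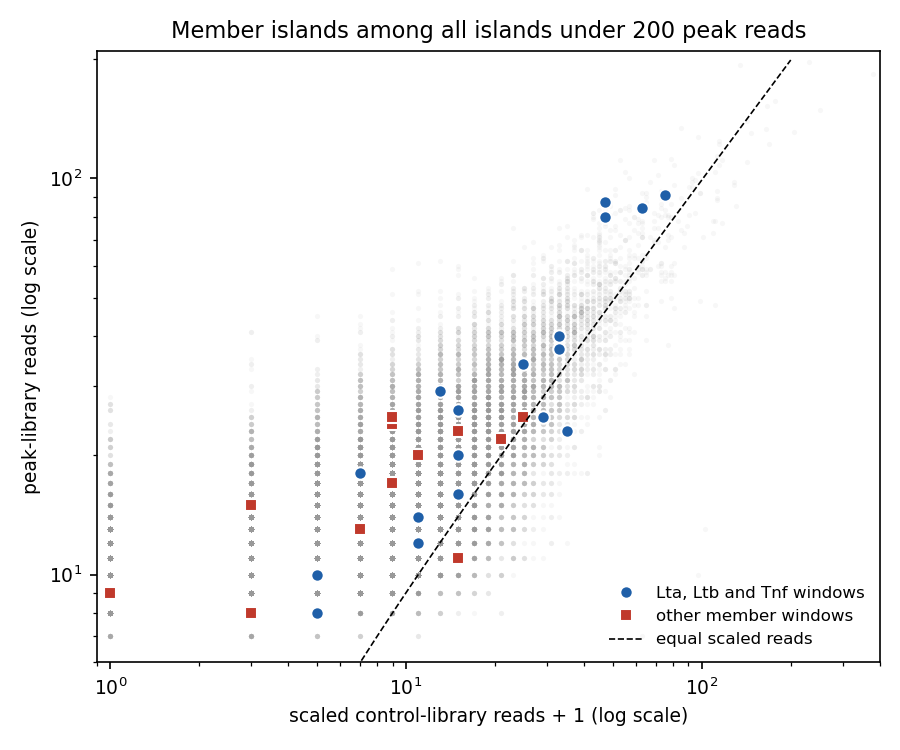
Peak-library reads (vertical, log axis) against scaled control-library reads plus 1 (horizontal, log axis) for each island. Grey points are all islands with fewer than 200 peak-library reads, blue circles the 18 islands of the Lta, Ltb and Tnf windows and red squares the 13 of the other windows, with a pair of squares at the same place (20 against 5 reads). The members lie within the cloud of all islands, and 3 of the 31 lie below the dashed line of equal scaled reads.

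Of the 8 other TNF superfamily ligand genes of the mouse, 5 had an island in their window and at least 1 island met an FDR of 0.05 in each of the 5, shares of the same order as in all genes (68.3% and 59.0%). At Fasl, which encodes the death ligand FasL, 10 islands held 234 against 51 reads, for a pooled fold of 2.30 (1.69 to 3.18). Its island at chr1:161802801-161806000 held 56 against 8 reads, a fold of 3.51 (1.66 to 8.52), with an adjusted exact binomial p of 0.0583. The 2 islands of Cd70 were those of Tnfsf14, and Tnfsf12 and Tnfsf13 are neighbours that shared islands, with pooled folds of 1.20 (0.889 to 1.65) and 1.37 (1.03 to 1.85). Tnfsf9, which encodes 4-1BB ligand, had 3 islands and 1.86 (1.07 to 3.38). Cd40lg, Tnfsf18 and Eda had none.

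Of the 13 receptor genes listed for the members, 11 had an island, and in 10 of these windows an island met an FDR of 0.05, beside 68.3% and 59.0% of all protein-coding genes. Some of these receptor genes are neighbours that share islands, so they do not count as independent genes in these numbers. Over their 29 islands 13 were at this FDR, 44.8% where the table had 62.5%, and the pooled fold was 1.52 (1.27 to 1.82). At Ltbr, which encodes the receptor of membrane lymphotoxin, 3 islands held 32 against 16 reads, for a pooled fold of 1.00 (0.534 to 1.96). Tnfrsf1a, the neighbouring TNF receptor gene, shared 1 of them, with 10 against 2 reads. Tnfrsf11a, which encodes the RANKL receptor RANK, had 1 island with 18 against 3 reads and 3.00 (0.877 to 15.9), and Tnfrsf11b, which encodes the decoy receptor of RANKL, had none. Tnfrsf4, the OX40 gene, had 1 island with 24 against 4 reads and 3.00 (1.03 to 11.9), and Tnfrsf10b, the TRAIL receptor gene, had 5 with 116 against 31 reads and 1.87 (1.25 to 2.88). Tnfrsf14, which encodes HVEM, stood at 1.17 (0.768 to 1.81) over 5 islands. Tnfrsf17, a receptor of BAFF, had none.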

How the data were processed

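The submitters' processing notes name Bowtie2 2.4.2, SICER 2.0 and the build mm10. The settings of both tools are not given in the sources used. The deposited read counts are whole numbers per island under headers that call them read counts, and they were taken as unscaled. The deposited fold per island is the ratio of peak to control reads divided by 1 constant factor, 1.997, wherever control reads exist. The p-value and FDR were deposited by the authors and were used to filter and rank islands only. The table was not split by sample, and neither read column was tied to a genotype. Positions count from 1, after 1 was added to the starts and ends in the table.

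Genes came from RefSeq tables of GRCm38.p6. Of the LTi marker list, 1 gene is not reported here. Pooled folds sum reads over islands. Exact binomial tests ran over all 19531 islands with scipy 1.17.1, adjusted with statsmodels 0.14.6, and were tested on simulated data. With 1 library per group these tests compare 2 libraries, not conditions. The text names all 10 members and, per window, islands with the most peak-library reads, the lowest FDR or an overlap with the gene. Promoter sequences of Lta and Tnfsf8 are not printed, since the gene body in the gene table reaches past the start in the promoter table. The members and lists were chosen with earlier results of these data known. Alternatives covered the flank, the overlap, thresholds, read minimum and scaling; pairwise window tests, the 1 kb promoter margin and the motif core were added after the data were seen.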

Additional observations from a re-analysis of the deposited data

How the results depend on the processing

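On the log2 scale, equal totals move each fold by -0.36 and unscaled reads move it by 1.00. With equal totals the Lta, Ltb and Tnf block fell to 1.10 (0.944 to 1.28) and Tnfsf8 went to 0.971, while Tnfsf11 kept an interval above 1 at 2.23 (1.23 to 4.38) and all member islands one at 1.17 (1.03 to 1.34). Those totals take in every island. The 19513 nuclear islands under 200 peak-library reads held 386196 of the 483771 peak-library reads and 119307 of the 189291 control-library reads. Equal totals over these nuclear islands alone would lower each fold further. At the caller's scaling these nuclear islands stood at 1.62. That value lies inside the intervals of Tnfsf11 (1.57 to 5.60) and of all member islands (1.31 to 1.72). With the nuclear totals set equal, both intervals would therefore include 1. Without scaling Tnfsf13b went to 1.57, above 1, and 20 of the 31 islands passed the binomial test, as did 12813 of all 19531 islands. The number of member islands was 45 with 100 kb on either side, 17 with 10 kb and 13 with gene bodies alone. It was 19 with at least 20 peak-library reads. At an FDR of 0.05 or less were 26 with 100 kb, 12 with 10 kb and 11 with gene bodies. With the 50 kb flank, 6 were at an FDR of 1e-05 or less. The last is 19.4% of the 31, beside 20.7% of the whole table. With 100 kb on either side Tnfsf15 also had an island, Tnfsf4 stood at 3.00 (1.25 to 8.72) and Tnfsf14 at 1.28 (1.02 to 1.60). The pooled fold there was 1.39 (1.25 to 1.54) over all member islands and 1.33 (1.17 to 1.51) for the Lta, Ltb and Tnf block. The number of members with an island ran from 7 to 10 over the alternatives run. No paired analysis was possible because each group has 1 library. Counts of a few control reads per island limit every single-island fold.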
